A study of Mus musculus with 23 samples.

Results

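The ERVK elements of the mouse are endogenous retroviruses related to betaretroviruses, and the 220 subfamilies described here are their long terminal repeats (LTRs). They were chosen from 1135 repeat subfamilies as all entries of the family ERVK whose name does not end in -int, leaving out names that start with IAP or contain ETn and the subfamily RLTR45. The rule used names and family only, and it was set with earlier results of these data known. Of the 220, 198 had a mean of at least 10 normalized reads over all samples and were tested. The 22 others had means from 0.186 to 9.15, and 7 of them were listed at 0 in every 9-month sample.

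Poly(A)-selected RNA of whole spinal cord was sequenced in PS19 mice, a model of tauopathy, and in wild-type littermates as controls. PS19 mice are heterozygous for a transgene of mutant human tau driven by the mouse prion protein promoter, so tau is made mainly in neurons, and the controls carry no transgene. The 23 samples formed 4 groups, with 7 PS19 and 6 control samples at 9 months and 5 of each genotype at 4 months. At 9 months, the sample titles placed PS19 replicates 6 and 7 among or next to the controls in number order. All other PS19 samples of this age had lower numbers than every control. Genotype at 9 months thus largely coincided with this order, a limit on every genotype difference at this age. Whether the order marks a difference in preparation was not tested. The labels did not say whether each sample was a different mouse, so p-values measure the spread between samples, which may be partly technical. The values used cover repeats only, and neither the tau transgene nor cell type markers of the spinal cord were analysed here.

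An LTR flanks each end of a retroviral copy and holds its promoter and polyadenylation signal, while the internal part between the LTRs encodes the viral proteins. Recombination between both LTRs of a copy removes the internal part and leaves a solitary LTR, and most old LTR copies in the mouse genome are of this kind. An LTR can start a transcript, end one, or lie inside the transcript of another gene. ERVK elements are normally silenced by histone H3 lysine 9 methylation and DNA methylation, and loss of heterochromatin has been described in tauopathy models. Reads of all copies were summed for each subfamily, so a value does not say which copy was read, and closely related subfamilies can share reads. Subfamilies differ in copy number and length, so a higher value means more reads and not more transcript per copy. The LTR consensus sequences were not used here.

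A 9-month sample held 338090 to 590194 repeat reads and a 4-month sample 529522 to 2168280. The 220 LTR subfamilies together received 23220 to 36271 reads in a 9-month sample and 22817 to 102925 in a 4-month sample. The median tested subfamily had 31.25 reads in the 9-month controls and 207.5 in the 4-month controls. At 4 months, replicates 1 to 3 of both genotypes (6 samples) had repeat totals of 1494940 to 2459740 normalized reads, and replicates 4 and 5 (4 samples) had 471178 to 779835. The 6 samples had the higher mean log2 level for 196 of the 198 tested LTR subfamilies, by a median of 1.76, and for 914 of all 920 tested repeats, by a median of 1.93. The median coefficient of variation of an LTR subfamily was 63.9% in control and 50.9% in PS19 at 4 months, against 30.2% and 32.1% at 9 months.

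The signal lay in few subfamilies. At 9 months, 8 of the 220 had a mean above 1000 normalized reads and together held 50.4% of the signal of all 220, while 44 lay between 100 and 1000 and 168 below 100. RMER6C and RMER6D led, with 3176 ± 264 and 3094 ± 184 in control (SD, n = 6) and 3042 ± 261 and 2884 ± 194 in PS19 (SD, n = 7). They did not differ from each other beyond their spread and together made up 21.2% of the LTR signal. RLTR20A4 (1807 ± 141 in control, 1780 ± 81.6 in PS19) and RLTR17B_Mm (1688 ± 254 and 1859 ± 304) came next and overlapped in range. RLTR20C1_MM (1371 ± 65.0 and 1303 ± 63.3), RLTR51A_Mm (1303 ± 70.8 and 1131 ± 97.1), RMER17C2 (1394 ± 100 and 992 ± 186) and RMER19B (1028 ± 118 and 1146 ± 143) made up the rest of the 8. In control, RMER17C2, RLTR20C1_MM and RLTR51A_Mm overlapped in range, whereas in PS19 the mean of RMER17C2 was the lowest of the 8.

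At 4 months the order was different. RLTR17B_Mm led with 3729 ± 2558 in control and 3432 ± 1881 in PS19 (SD, n = 5 each). RMER19B (2641 ± 1388 and 2209 ± 962) and RLTR20A4 (2254 ± 1575 and 1829 ± 966) followed, and no pair of these was separated by more than the spread. RMER6C and RMER6D were at 907 ± 687 and 557 ± 296 in the 4-month controls. The plot of levels at both ages sets all tested subfamilies side by side.

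**Figure D1:**
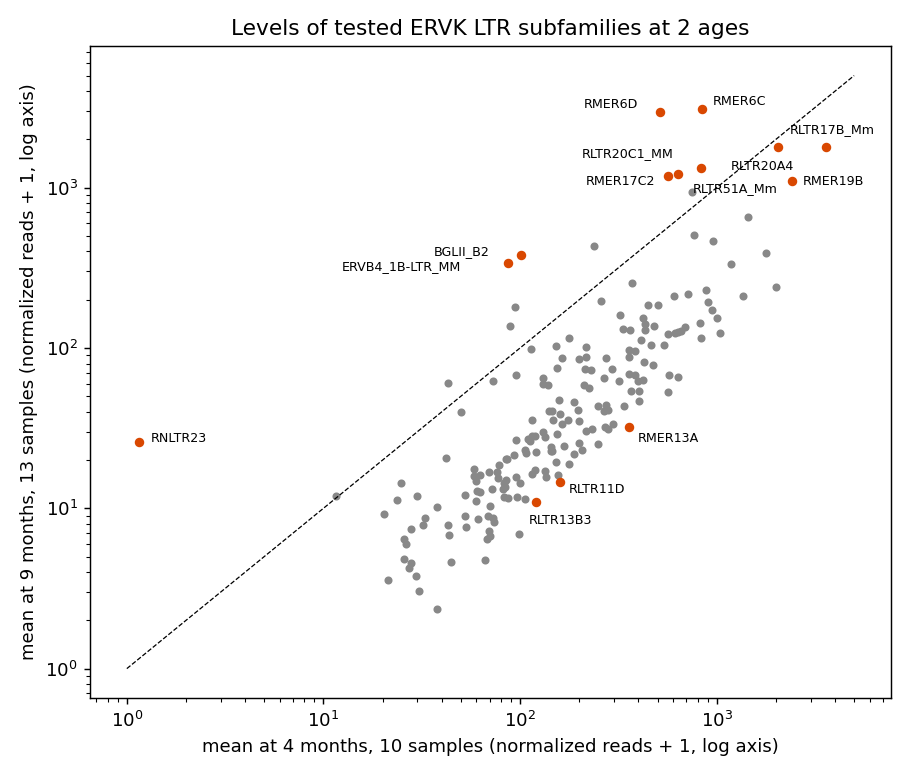
Mean level of each of the 198 tested LTR subfamilies at 4 months (x axis, 10 samples) and 9 months (y axis, 13 samples), in normalized reads plus 1 on log axes, with the dashed line at equal levels and named subfamilies in orange. Most points lie below the line, while RMER6C, RMER6D, BGLII_B2, ERVB4_1B-LTR_MM and RNLTR23 lie above it.

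As a share of all repeat signal, the 220 subfamilies made up 7.03% ± 0.17 in control (SD, n = 6) and 6.51% ± 0.23 in PS19 (SD, n = 7) at 9 months. The control samples ranged from 6.77% to 7.24% and the PS19 samples from 6.15% to 6.81%, so that 1 PS19 sample, replicate 7, lay above the lowest control. The difference was -0.52 percentage points, and -0.29 without the 3 subfamilies of highest mean. RMER6C and RMER6D alone made up 1.56% ± 0.16 in control and 1.33% ± 0.15 in PS19. The summed LTR signal itself was 28347 ± 1596 in control and 29067 ± 2417 in PS19, a difference smaller than either SD. The whole table summed to 403806 ± 31118 in control and 447548 ± 47923 in PS19. At 4 months the share was 4.57% ± 0.23 in control and 4.60% ± 0.12 in PS19, with ranges of 4.31% to 4.83% and 4.46% to 4.72%. In whole tissue, fewer cells of a type and less RNA per cell cannot be told apart, and this holds for every difference given here.

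**Figure D2:**
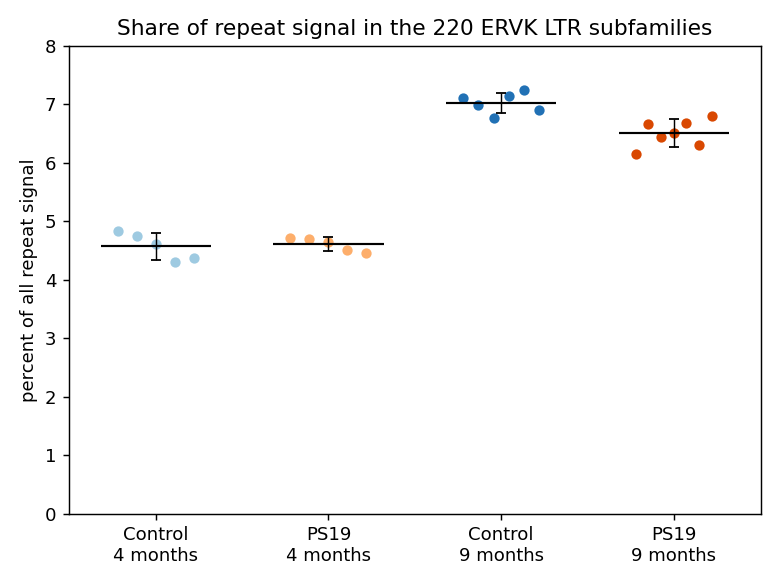
Share of all normalized repeat reads (percent, y axis) that fell in the 220 LTR subfamilies, a point per sample, with the mean and SD of each of the 4 groups. The 4-month samples lie between 4.31% and 4.83% and the 9-month samples between 6.15% and 7.24%, with PS19 lower than control at 9 months by 0.52 percentage points and 1 overlapping sample.

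The comparison of PS19 with control at 9 months asks whether these LTRs change late in the course of the model. It was fitted with limma to the 13 samples of 9 months, on log2(value + 1), and p-values were adjusted over all 920 repeats tested. RLTR21, RLTR19, RLTR20A2B_MM and RLTR16C_MM were higher in PS19 and RMER17C2 was lower, each at a limma adjusted p under the threshold of 0.05. These 4 of 198 higher calls (2.02%) stood beside 3.04% of all repeats tested, and the 1 lower call (0.505%) beside 0.326%. The LTRs were thus called about as often as repeats in general, and the counts are no result about LTRs as a class. At an unadjusted limma p under 0.05 there were 34 of the 198 (30 higher, 4 lower), against 164 of 920 (143 higher, 21 lower). The median log2 fold change was 0.21 for the LTRs and 0.19 for all repeats, and 67.2% of the LTRs and 75% of all repeats had a positive value.

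RLTR21 had the smallest p among the higher LTRs. Its control values were 131 at the lowest, 161 at the median and 212 at the highest, and its PS19 values were 177, 263 and 307. The groups overlapped in 1 PS19 sample, replicate 4, and all 7 PS19 samples lay above the control median. The means were 166 ± 31.1 and 257 ± 43.9, a log2 fold change of 0.63 (SE 0.15, 95% interval 0.33 to 0.94, limma adjusted p = 0.0190).

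RLTR19 was separated without overlap. Control values were 27.5, 45.6 and 50.4 (lowest, median, highest) and PS19 values were 57.3, 71.8 and 120. The log2 fold change was 0.80 (SE 0.21, 95% interval 0.38 to 1.23, limma adjusted p = 0.0331). The internal part of the same name, RLTR19-int, was called too: it rose from 456 ± 43.7 to 621 ± 73.1, a log2 fold change of 0.44 (SE 0.11, limma adjusted p = 0.0221). The LTR and the internal part of this element thus moved in the same direction.

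RLTR20A2B_MM and RLTR16C_MM were low LTRs with wide intervals. RLTR20A2B_MM read 12.1, 16.2 and 28.2 in control and 19.7, 35.3 and 61.3 in PS19, with a log2 fold change of 1.003 (SE 0.28, 95% interval 0.43 to 1.57, limma adjusted p = 0.0442). RLTR16C_MM read 3.02, 4.81 and 12.6 in control and 9.35, 14.2 and 21.1 in PS19, with a log2 fold change of 1.28 (SE 0.36, 95% interval 0.54 to 2.02, limma adjusted p = 0.0469). All 7 PS19 samples lay above the control median for both, and the groups overlapped for both through the highest control samples. RLTR16C_MM rested on as few as 3 reads in a sample, and edgeR on the recovered reads gave it an adjusted p of 0.0877.

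RMER17C2 was the only LTR called lower and 1 of the 8 largest. Control values were 1254, 1406 and 1527 (lowest, median, highest) and PS19 values were 750, 958 and 1239, with no overlap. The log2 fold change was -0.51 (SE 0.11, 95% interval -0.74 to -0.28, limma adjusted p = 0.0144). Of the 8 RMER17 subfamilies, RMER17D (478 ± 65.3 in control, 390 ± 46.6 in PS19) and RMER17A2 (174 ± 26.3 and 137 ± 17.9) also had lower means. Their log2 fold changes were -0.29 (SE 0.12) and -0.34 (SE 0.14), with limma adjusted p = 0.192 and 0.209. RMER17B, named after its values were seen, lay the other way without overlap, at 77.9 to 115 for control and 117 to 199 for PS19, with a log2 fold change of 0.48 (limma adjusted p = 0.0928). The RMER17 subfamilies therefore did not all share a direction, although their names place them together and they may share reads. Of the 8, 5 had a negative log2 fold change, beside 230 of all 920 repeats. After TMM scaling within the repeat reads 6 of the 8 were negative, beside 418 of 920. After quantile scaling 7 were negative, beside 446 of 920.

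**Figure D3:**
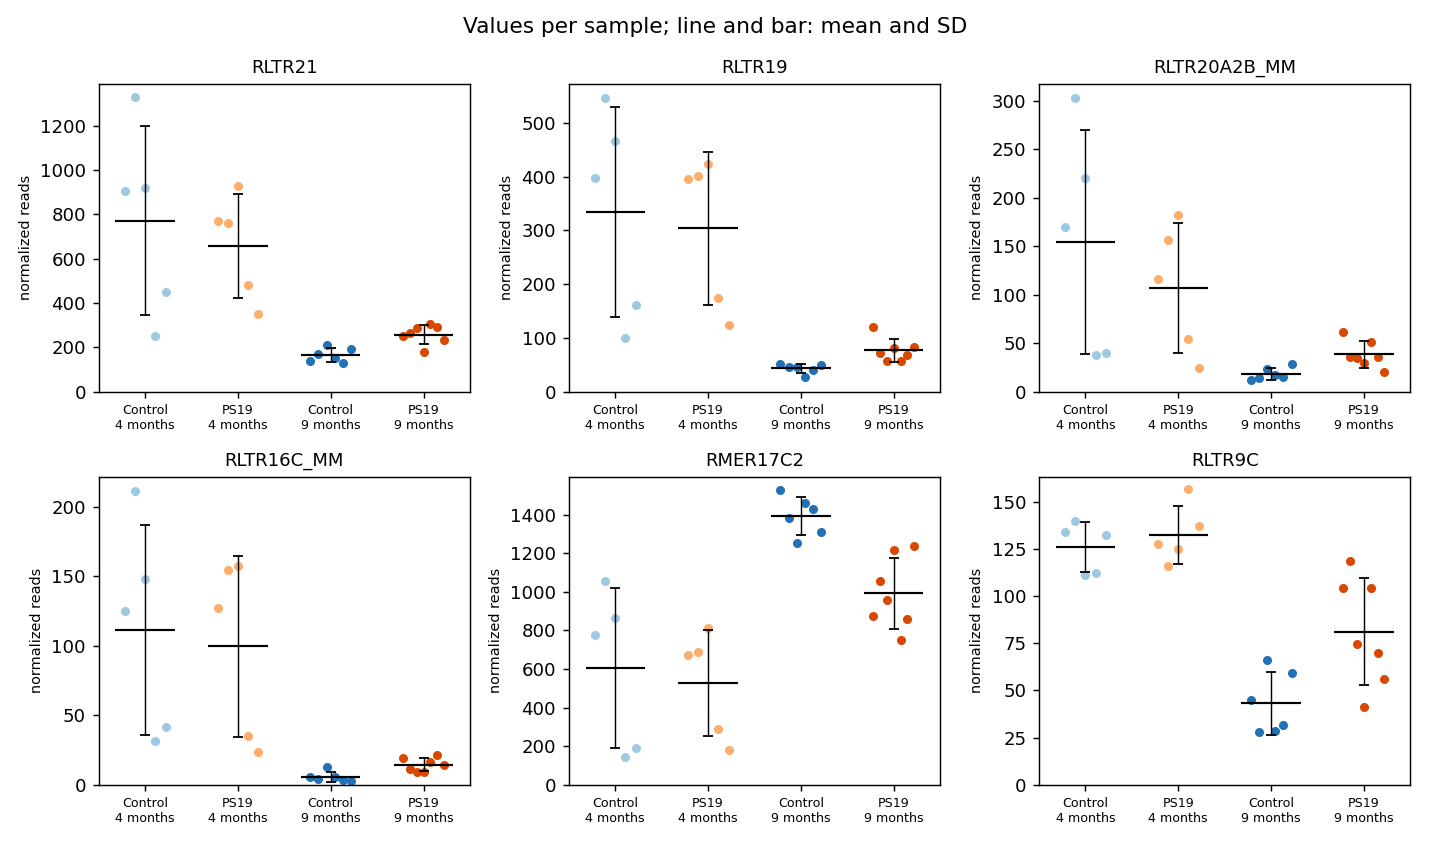
Normalized reads per sample (y axis from 0, own scale in each panel) of the 5 LTR subfamilies called at 9 months and of RLTR9C, just outside the threshold, in the 4 groups, with mean and SD. RMER17C2 and RLTR19 show no overlap between genotypes at 9 months, and at 4 months the points of most panels fall into a high and a low cluster in both genotypes.

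Among all LTRs, 2 (RLTR19 and RMER17B) had every PS19 value above every control value, against 0.978% of all repeats, and 1 (RMER17C2) had every value below, against 0.326%. Just outside the threshold stood RLTR9C (43.1 ± 16.5 in control, 81.2 ± 28.5 in PS19, log2 fold change 0.90, limma adjusted p = 0.0516). RLTR17D_Mm was next (37.6 ± 12.5 and 66.4 ± 19.5, log2 fold change 0.82, limma adjusted p = 0.0602). On the lower side, RLTR51A_Mm differed by -0.21 (SE 0.09, limma adjusted p = 0.209) and ERVB4_1B-LTR_MM by -0.19 (SE 0.11, limma adjusted p = 0.363). RNLTR23 differed by -0.53 (SE 0.32, limma adjusted p = 0.365). Under the deposited scaling the other large LTRs moved little. The 95% interval of the log2 fold change was -0.24 to 0.11 for RMER6C, -0.26 to 0.06 for RMER6D, -0.19 to 0.15 for RLTR20A4 and -0.24 to 0.09 for RLTR20C1_MM. For RLTR17B_Mm it was -0.09 to 0.36 and for RMER19B -0.06 to 0.37.

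Grouped by name, the LTRs spread around the median of all repeats. Of all repeats tested, 28 of 920 (3.04%) were called higher and 143 were higher at an unadjusted limma p under 0.05. RLTR16 to RLTR19 names had the highest median log2 fold change, 0.41 over 13 tested, with 2 called higher and 6 at an unadjusted limma p under 0.05, all higher. RLTR9 names followed with 0.38 over 11, of which 5 had an unadjusted limma p under 0.05 and 0 were called. RLTR11 names also had 0.38 over 5, with positive values for all 5. RLTR10 names had 0.34 over 9 and MLTR names 0.32 over 17, of which 15 were positive, and 0 were called in both. RLTR20 to RLTR22 names had 0.28 over 19, with 2 called higher, and BGLII names 0.29 over 6. At the other end stood RMER17 names with -0.12 over 8, RMER10 to RMER16 names with -0.07 over 13, the LTRs in no other group of names with -0.05 over 14 and RMER1 to RMER9 names with 0.03 over 7. The 57 tested ERVK entries outside the 220, which are internal parts and IAP, ETn and RLTR45 entries, had a median of 0.36 with 5 called higher. After TMM scaling RLTR9 names had the highest median, 0.28, and RLTR16 to RLTR19 names came next with 0.26. These medians are descriptions and were not tested against each other.

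**Figure D4:**
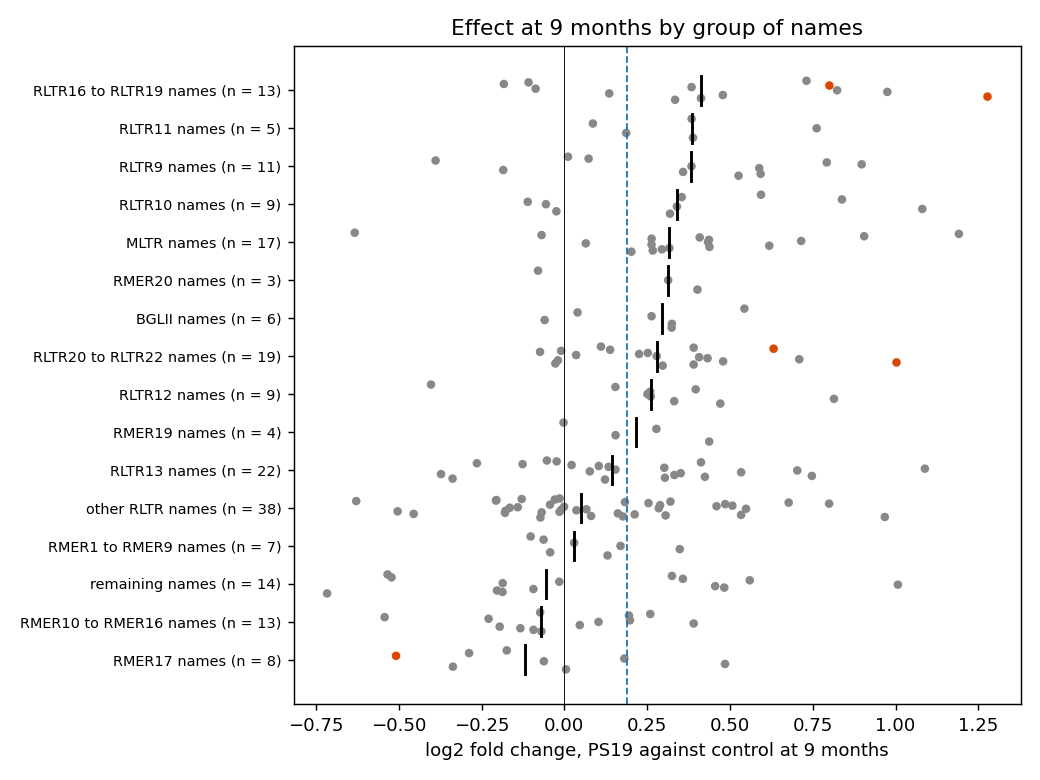
Log2 fold change of PS19 against control at 9 months (x axis) of each tested LTR subfamily, sorted by group of names (y axis), with the median of each group as a black bar, called subfamilies in orange and the median of all 920 repeats (0.19) as a dashed line. Medians run from -0.12 in RMER17 names to 0.41 in RLTR16 to RLTR19 names.

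Scaling bears on these directions. TMM scaling within the repeat reads moved the median of all repeats from 0.19 to 0.03 and that of the LTRs from 0.21 to 0.06. Relative to the other repeats, RLTR21 was then the only LTR called higher (log2 fold change 0.47, limma adjusted p = 0.0437), against 1.09% of all repeats. RMER17C2 (-0.67), RMER17A2 (-0.50) and RLTR51A_Mm (-0.37) were called lower, against 0.761%, at limma adjusted p = 0.0343, 0.0437 and 0.0437. RLTR19 kept a log2 fold change of 0.64 with a limma adjusted p of 0.0620. The 5 called LTRs kept their signs under this scaling, whereas among the largest LTRs RLTR17B_Mm and RMER19B, both positive under the deposited scaling, came to -0.03 and -0.01. The 7 tested RMER1 to RMER9 names, which include RMER6C and RMER6D, had a median of -0.13 after TMM scaling, against 0.03 before. Of these 7, 3 were then lower at an unadjusted limma p under 0.05, against 0 before. Over all 920 repeats that count was 72, against 21 before.

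**Figure D5:**
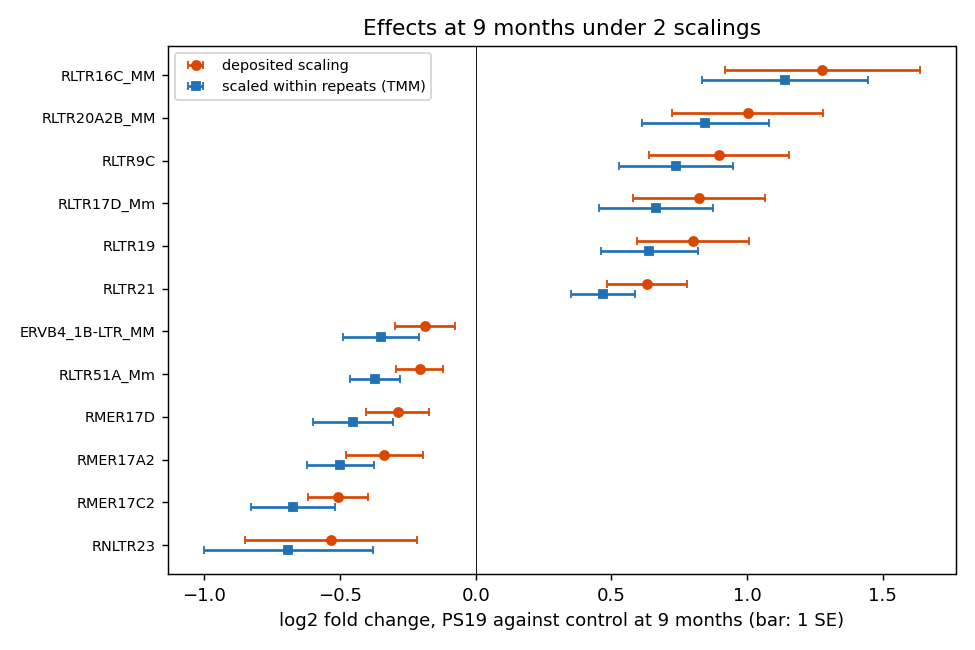
Log2 fold change of PS19 against control at 9 months (x axis, bar of 1 SE) of 12 LTR subfamilies under the deposited scaling (orange circles) and after TMM scaling within repeat reads (blue squares). Every value is lower after TMM scaling, for example 0.47 against 0.63 in RLTR21 and -0.67 against -0.51 in RMER17C2, and the signs are kept.

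Count models on the recovered reads gave similar lists. edgeR called 4 LTRs higher (RLTR19, RLTR20A2B_MM, RLTR21 and RLTR9C), against 2.28% of all repeats, and RMER17C2 lower, against 0.326%. DESeq2 called 10 higher, among them the 4 of limma, against 4.46%, and RMER17C2 lower, against 0.435%. A limma fit that shared 1 spread over all 23 samples called 0 LTRs, against 0.109% of all repeats. In that fit 8 of 198 LTRs had an unadjusted p under 0.05, beside 28 of all 920 repeats. PS19 replicates 6 and 7, whose titles were numbered among or next to the controls, were also fitted as the only PS19 samples. With PS19 replicates 6 and 7 alone limma called 0 LTRs, against 0.652%, and 19 of 198 had an unadjusted p under 0.05, beside 74 of all 920 repeats. There RMER17C2 differed by -0.43, RLTR21 by 0.66 and RLTR19 by 0.81. So few PS19 samples cannot decide whether the calls depend on the order of the titles.

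Single samples decided how many LTRs passed. The higher count was 0 without control replicate 1, 4 or 5 or PS19 replicate 6. It was 1 without control replicate 2 or PS19 replicate 1, 2 or 5, and 2 without control replicate 6 or PS19 replicate 3. It was 6 without PS19 replicate 7, 8 without PS19 replicate 4 and 12 without control replicate 3. The count over all 920 repeats moved alongside: it was 28 with every sample, 7 to 11 in the 4 fits with 0 LTRs higher, 9 to 16 in the 6 fits with 1 or 2, and 35, 47 and 72 in the last 3. RMER17C2 passed in 12 of 13 such fits and missed without control replicate 4 (limma adjusted p = 0.0503). RLTR21 passed in 8 of 13, RLTR19 in 5, RLTR20A2B_MM in 4 and RLTR16C_MM in 2.

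At 4 months no LTR was called between the genotypes. limma on the 10 samples called 0 of 198, against 0% of all repeats, and 0 had an unadjusted p under 0.05, and edgeR and DESeq2 gave the same counts. With a term for the high and the low samples, limma again called 0, against 0%, with 0 LTRs at an unadjusted p under 0.05. The median log2 fold change was -0.09 for the LTRs and -0.08 for all repeats. For the LTRs it was -0.26 in replicates 1 to 3 alone and 0.19 in replicates 4 and 5 alone, so the sign differed between these samples. All repeats did the same, with medians of -0.27 and 0.22.

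The LTRs called at 9 months illustrate the spread at 4 months. RLTR21 read 906, 1331, 920, 251 and 451 in the 5 controls and 770, 761, 929, 482 and 350 in the 5 PS19 samples. RLTR19 read 397, 547, 465, 98.7 and 160 in control and 395, 400, 424, 175 and 124 in PS19. RMER17C2 read 775, 1055, 866, 146 and 189 in control and 674, 688, 812, 291 and 181 in PS19. For all 3, replicates 4 and 5 were lower than replicates 1 to 3 in both genotypes, and the genotypes overlapped. The 95% intervals of the log2 fold change were -1.24 to 1.06, -1.32 to 1.26 and -1.40 to 1.41, so a difference of the size seen at 9 months was not detectable at this spread.

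The LTRs of smallest p at 4 months were RLTR44E, RLTR8 and RLTR12G on the lower side and RLTR13A, RMER16B2 and ERVB7_4-LTR_MM on the higher side. RLTR8 read 233, 289, 216, 347 and 184 in control and 198, 172, 259, 167 and 91.0 in PS19, a log2 fold change of -0.56 (95% interval -1.61 to 0.49). RLTR44E read 28.4 ± 12.8 and 21.1 ± 16.3, and RLTR12G 374 ± 99.2 and 293 ± 93.2. RLTR13A read 88.9 ± 63.6 and 96.1 ± 41.7, RMER16B2 58.0 ± 46.1 and 65.2 ± 40.4, and ERVB7_4-LTR_MM 21.6 ± 16.7 and 23.6 ± 14.03. All of these groups overlapped.

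Whether the PS19 effect changed with age was tested as an interaction over all 23 samples. limma called 0 LTRs, against 0% of all repeats, with 0 LTRs and 8 of all 920 repeats at an unadjusted p under 0.05. edgeR and DESeq2 also called 0 LTRs, beside 0 and 1 of all 920 repeats, each with 3 LTRs at an unadjusted p under 0.05. With a term for the high and low 4-month samples limma called 0 LTRs, against 0.217%. In this fit 26 LTRs had an unadjusted p under 0.05, beside 76 of all 920 repeats. For 25 of the 26 and 75 of the 76, the log2 fold change of PS19 against control was more positive at 9 months. This need not be a larger effect. RLTR21 differed between ages by 0.72, RLTR19 by 0.83 and RMER17C2 by -0.51 (log2), each at a limma adjusted p of 0.997. The effects of these LTRs were therefore not shown to differ between 4 and 9 months.

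Between ages, most LTRs had lower values at 9 than at 4 months. The ages coincide with any difference in preparation or sequencing, which cannot be told apart from age, and repeat totals were lower at 9 months too. In control, limma called 10 LTRs higher at 9 months, against 6.09% of all repeats, and 168 lower (84.8%), against 79.3%. In PS19 it called 11 higher, against 6.09%, and 167 lower (84.3%), against 77%. The median log2 fold change was -2.26 in control (all repeats -2.14) and -1.94 in PS19 (all repeats -1.83). The summed LTR signal averaged 66486 at 4 months and 28347 at 9 months in control, while the whole table averaged 1425380 and 403806. Without RMER6C and RMER6D, the share of the LTRs in all repeat signal was 4.48% at 4 months and 5.47% at 9 months in control, and 4.51% and 5.17% in PS19.

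These counts depended on the 4-month samples and on scaling. Without the 6 high 4-month samples, 21 LTRs were higher and 117 lower in control, against 16.3% and 50.2% of all repeats. In PS19 they were 18 and 113, against 14% and 50.2%. After TMM scaling the split was 47 higher and 63 lower in control, against 32.7% and 29.7%, and 51 and 55 in PS19, against 32.3% and 27.9%. After quantile scaling they were 36 and 92 in control, against 25.3% and 42.5%, and 33 and 87 in PS19, against 24.5% and 41.4%.

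A set of 10 LTRs was called higher at 9 months by limma in both genotypes, without the 6 high 4-month samples and after TMM scaling as well, beside 50 of all 920 repeats (5.43%). They were RMER6C, RMER6D, RMER17C2, RMER17D, RLTR20C1_MM, RLTR51A_Mm, RLTR44C, BGLII_B2, ERVB4_1B-LTR_MM and RNLTR23. They include 5 of the 8 largest LTRs at 9 months, a ranking made from the same 9-month values. Of the 166 LTRs called lower in both genotypes, 34 were lower in all of these fits, beside 175 of all 920 repeats (19%). Of all repeats, 700 were called lower in both genotypes, and all 50 called higher in both genotypes passed these fits. Leaving out the 6 high samples and TMM scaling each raised the median age change. A higher call was thus unlikely to be lost in these fits, and its passing adds little support. For 5 LTRs (2.53%) the lowest 9-month value exceeded the highest 4-month value, against 3.26% of all repeats, and for 62 (31.3%) the highest 9-month value was below the lowest 4-month value, against 27.1%.

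RMER6D read 618, 950, 692, 241 and 284 in the 4-month controls and 523, 605, 683, 365 and 177 in PS19. At 9 months it read 2783 to 3325 in control and 2639 to 3145 in PS19, well above all of these. The log2 fold change was 2.66 in control and 2.75 in PS19 (limma adjusted p = 4.9e-07 and 2.9e-07). RMER6C followed with 2.26 and 2.24 (limma adjusted p = 5.5e-05 and 6.3e-05), and the pair made up 0.10% of repeat signal at 4 months in both genotypes.

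BGLII_B2 was higher in the 9-month samples of both genotypes. Control samples had 107 ± 77.8 at 4 months and 343 ± 17.4 at 9 months, and PS19 samples 92.4 ± 51.2 and 414 ± 53.0. The log2 fold changes were 2.16 and 2.38 (limma adjusted p = 0.00018 and 6.5e-05). ERVB4_1B-LTR_MM was likewise higher, with 90.9 ± 59.0 and 360 ± 32.2 for control and 80.2 ± 35.7 and 317 ± 30.7 for PS19. Its log2 fold changes were 2.29 and 2.11 (limma adjusted p = 1.3e-05 and 3.8e-05). The internal part of the same name, ERVB4_1B-I_MM-int, had means of 219 ± 127 and 209 ± 87.9 at 4 months and 22.2 ± 8.06 and 27.1 ± 6.17 at 9 months. The means of this LTR and its internal part thus lay in opposite order between the ages, in both genotypes.

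RNLTR23 was close to absent at 4 months. It was listed at 0 in 9 of 10 samples of that age and at 1.596 normalized reads in control replicate 1, whereas the 9-month samples read 18.96 to 48.3 in control and 9.95 to 41.0 in PS19. Its fitted log2 change of 4.57 in control and 4.31 in PS19 depends on the pseudocount.

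At the other end were RLTR13B3, RLTR11D and RMER13A, the LTRs with the lowest ratio of 9 to 4 months among those with a mean of at least 50. RLTR13B3 had 132 ± 93.3 at 4 months and 10.8 ± 3.60 at 9 months in control, and 108 ± 56.4 and 9.15 ± 4.96 in PS19. RLTR11D had 174 ± 120 and 11.2 ± 3.497 in control and 143 ± 87.3 and 15.5 ± 7.38 in PS19. RMER13A had 376 ± 288 and 34.6 ± 17.9 in control and 334 ± 212 and 27.8 ± 10.8 in PS19. For these 3 the values of the ages did not overlap. Their log2 fold changes in control were -3.18, -3.46 and -3.05 (limma adjusted p = 1.2e-05, 3e-06 and 3.2e-05), and after TMM scaling -1.17, -1.45 and -0.996.

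Of the 198 tested LTRs, 178 were called with age in each genotype, beside 786 of all 920 repeats in control and 764 in PS19. All 5 LTRs called between genotypes at 9 months were called with age too. Most LTRs were, so this is no result about the 5. RLTR21, RLTR19, RLTR20A2B_MM and RLTR16C_MM were called lower at 9 months, with log2 fold changes of -2.01, -2.68, -2.60 and -3.86 in control and -1.29, -1.85, -1.21 and -2.39 in PS19. RMER17C2 was called higher, with 1.61 in control and 1.10 in PS19 (limma adjusted p = 0.0013 and 0.019). After TMM scaling RLTR21 came to 0.07 in control and 0.52 in PS19 and RLTR20A2B_MM to 0.57 in PS19, so their direction with age flipped with the scaling, while RMER17C2 stayed positive at 3.69 and 2.90.

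Of the 220 LTRs, 14 had an internal part of the same name in the table. RLTR19 was the only pair with either part called at 9 months. In 11 pairs both parts were tested, and their log2 fold changes had the same sign in 5 and opposite signs in 6. Of the pairs with the same sign, RLTR10 (58.4 ± 13.2 in control, 73.8 ± 19.9 in PS19) and RLTR10-int (113 ± 19.4 and 133 ± 39.6) differed by 0.32 and 0.20 in log2, and neither was called (limma adjusted p = 0.383 and 0.543). RMER16 (24.9 ± 10.4 and 29.5 ± 13.6) and RMER16-int (106 ± 19.5 and 145 ± 51.7) differed by 0.20 and 0.39, and neither was called (limma adjusted p = 0.755 and 0.304). RLTR42 and its internal part differed by 0.29 and 0.06, and those of ERVB5_1-LTR_MM by -0.09 and -0.05. Among the opposite pairs, ERVB3_1-LTR_MM was at -0.72 and its internal part at 0.48, and MMERVK10D3_LTR at -0.52 and 0.27. RLTR18 was at -0.09 and 0.54, and ERVB4_1B-LTR_MM at -0.19 and 0.32. RMER17A was at 0.0049 and -0.07, and RMER17C at 0.18 and -0.04. None of these 8 pairs had a part called, and the limma adjusted p of the 16 parts ran from 0.316 to 0.994. In 3 pairs the LTR fell below the level tested: ERVB4_1-LTR_MM, ERVB4_2-LTR_MM and ERVB4_3-LTR_MM had means over all samples of 1.06, 3.65 and 5.21, and their internal parts 92.5, 260 and 5.08.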

How the data were processed

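Per the labels, poly(A) RNA of whole spinal cord lysate was sequenced in paired-end, stranded libraries. The authors deposited a normalized signal, in which the reads of a subfamily were divided by the size factor of the sample. Trimmomatic, STAR, DESeq2 and the build mm10 are named, without versions, in the submitters' processing notes. Not given in the sources used here are the program that counted repeats, its annotation, the use of strand and the handling of reads with many matches. All 23 columns matched a sample, and 0 were left unused.

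Every column was made of whole multiples of a single read (100% of values within 0.1% of a read), and these reads were used for edgeR 4.0.16, which called 21 subfamilies higher and 3 lower at 9 months, and for DESeq2 1.42.0, which called 41 and 4. Within groups, every pair of samples differed beyond the noise of sampling (lowest chi-square per degree of freedom 3.73), and each was treated as a replicate. Libraries of the same mouse could also differ in this way, so this does not show that the samples were different mice. Replicates were numbered in order and do not pair samples.

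The main test was limma 3.58.1 (R 4.3.3, moderated statistics with a mean trend) on log2(value + 1), which understates changes of low subfamilies. It ran on the 920 subfamilies with a mean of at least 10, with Benjamini-Hochberg adjustment over all of them and a threshold of 0.05. Each age was fitted alone for the genotype comparisons, since the 4-month samples varied more, and all 23 samples were fitted for age and interaction. Scripts were tested on simulated data. Alternatives were pseudocounts of 0.5 and 5, no filter or a mean of at least 50, TMM or quantile scaling within repeats, a threshold of 0.01, other sets of samples and leaving out each sample. Members, name groups, the tests and the 2 clusters of 4-month samples were chosen with earlier results of these data known. LTRs were named where they were called at 9 months, were among the 6 higher and 6 lower of smallest p at 9 months or the 3 and 3 at 4 months, were among the 8 largest at 9 months, had 1 of the 3 highest or lowest age ratios at a mean of at least 50, or had an internal part of the same name. RMER17B and RLTR44C are named beyond this rule, to complete counts.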

Additional observations from a re-analysis of the deposited data

Results flagged for a closer look

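The named LTRs, their sum and their share were examined in each of the 4 groups for a sample far from the others of its group, 176 sets of values in all. In 12 of them the highest or the lowest sample stood apart by Dixon's criterion, which chance alone meets in about 1 in 20 groups. RLTR19 read 119.8 in PS19 replicate 1 at 9 months, against 57.3 to 83.33 in the other PS19 samples. RLTR16C_MM read 12.59 in control replicate 3 at 9 months, against 3.022 to 5.689, and RLTR17B_Mm read 2186 in the same sample, against 1500 to 1664. RMER17B read 199.4 in PS19 replicate 1 at 9 months, against 117.3 to 150.5, and RLTR42 read 34.75 in that sample, against 10.2 to 18.22. MMERVK10D3_LTR read 22.38 in PS19 replicate 6 at 9 months, against 2.278 to 6.545, and 2.195 in control replicate 5, against 10.04 to 12.09. RMER17A read 53.1 in control replicate 4 at 9 months, against 41.3 to 44.99. ERVB4_2-LTR_MM, below the level tested, read 1.866 in control replicate 1 and 0 in the other 9-month controls, and 4.573 in PS19 replicate 1 against 0 to 1.243. RLTR51A_Mm read 1342 in PS19 replicate 2 at 9 months, against 1036 to 1117. RNLTR23 read 1.596 in control replicate 1 at 4 months and 0 in the other controls of that age.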

How the results depend on the processing

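At 9 months the counts of LTRs called higher and lower (4 and 1) became 0 and 0 with no filter on low values, with 1 spread over all 23 samples, with PS19 replicates 6 and 7 only and at a threshold of 0.01, 1 and 3 after TMM scaling, 0 and 3 after quantile scaling, and 10 and 1 with DESeq2. Over all repeats the counts (28 and 3) became 8 and 0, 1 and 0, 6 and 0, 6 and 0, 10 and 7, 10 and 10, and 41 and 4 in the same order. Leaving out a sample gave 0 to 12 higher (7 to 72 of all repeats), 0 to 2 lower (0 to 6) and a median log2 fold change of 0.12 to 0.27. At 4 months leave-one-out medians ran from -0.43 to 0.23 and for the interaction from -0.03 to 0.61, with 0 called throughout. The difference in share ran from -0.57 to -0.46 percentage points at 9 months and from -0.04 to 0.09 at 4 months, and was -0.29 at 9 months without the 3 largest LTRs. The difference in log2 sum ran from 0.0018 to 0.07 and from -0.44 to 0.09. For age, leaving out a sample gave 7 to 13 higher, 162 to 175 lower and medians of -2.60 to -1.95 in control, and 7 to 11, 155 to 171 and -2.24 to -1.77 in PS19. Over all repeats these fits gave 43 to 68 higher and 683 to 776 lower in control, and 44 to 66 and 647 to 746 in PS19. TMM scaling gave 47 higher, 63 lower and a median of -0.22 in control and 51, 55 and -0.17 in PS19, and quantile scaling gave 36, 92 and -0.52 and 33, 87 and -0.45 (233 higher and 391 lower of all repeats in control, 225 and 381 in PS19). Without the 6 high 4-month samples the medians were -1.16 and -1.10, with 21 and 18 higher, beside 150 and 129 of all repeats. A threshold of 0.01 left 7 LTRs higher in each genotype, beside 42 of all repeats in each. Age changes that turned positive under TMM and quantile scaling were RLTR9C (0.45 and 0.20 in control, 1.01 and 0.66 in PS19), RMER19B (0.91 and 0.24, 0.98 and 0.39), RLTR8 (0.76 and 0.33, 1.02 and 0.58), RLTR13A (0.32 and 0.069) and RMER16B2 (0.19 and 0.11) in control, MMERVK10D3_LTR (0.71 and 1.23 in control, 0.31 and 0.93 in PS19), ERVB3_1-LTR_MM (0.051 and 0.37) in control, and RLTR21 (0.52 and 0.065), RLTR20A2B_MM (0.57 and 0.23), RMER17A2 (0.62 and 0.15) and RLTR12G (0.74 and 0.26) in PS19. RLTR21 (0.074) and RLTR12G (0.48) turned in control under TMM alone, and RMER17A2 was 0.064 in PS19 and ERVB3_1-LTR_MM 0.53 in control without the 6 high 4-month samples. The cause was not tested. No paired analysis was possible because the labels give no replicate numbers. At 9 months LTRs of few reads limit precision, and at 4 months the spread between samples does.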
